A study of Mus musculus with 27 samples.

Results

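Vehicle removal was followed in primary lung fibroblasts that had been kept for 15 d with dimethyl sulfoxide (DMSO) and were then cultured for another 20 d without it. The 3 libraries of these cells were set against the 3 libraries of cells harvested at the end of the 15 d with DMSO, which makes 6 of the 27 libraries of the series, and every gene expressed in the series was compared. The series asked what inhibition of the DNA damage kinase ATM does to lung fibroblasts. It gave cells 3 uM KU60019, an ATM inhibitor, or its vehicle DMSO for 15 or 35 d, harvested further cultures 20 d after either had been taken away, and used irradiated cells as a senescent control. All cells were wild-type C57BL/6 mouse lung fibroblasts grown in DMEM with 15% fetal bovine serum at 3% oxygen, and the control groups of this comparison received no agent other than DMSO. Besides the starting group (libraries S1_705, S2_715 and S3_716) and the removed group (S7_705, S8_715 and S9_716), the text uses the group kept with DMSO for 35 d (S13_705, S14_715 and S15_716) and the group kept with DMSO for 35 d and then 20 d without it (S19_705, S20_715 and S21_716). The removed group and the DMSO 35 d group were the same time in culture, whereas the removed group was 20 d older than its starting group, so that vehicle removal and further culture cannot be told apart in the first comparison. The labels do not say whether the end numbers of the library names mark separate animals or cultures, or whether animals were pooled. The p-values and standard errors (SE) therefore rest on the spread between libraries of the same group, estimated over all 27 libraries, which may be technical.

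The 6 libraries held between 26604303 (S2_715) and 41114615 (S3_716) counts, and the 27 libraries between 20659745 and 50859493. Levels are given as CPM, the counts of a gene relative to the total of its library, with totals corrected by the TMM factor. For each library, the deviation of a gene's log2 level from its mean over the 27 libraries was correlated by rank with gene length. The correlation was -0.09 in S2_715 and 0.18 to 0.31 in the other 5 libraries. In S2_715, 10.7% of the counts lay in pseudogenes against 7.15% to 8.09% in the others. S7_705 had 0.943% of its counts in rRNA genes against 0.094% to 0.222% in the others. All 12 fibroblast marker genes passed the filter on low counts and summed to 35067 to 52093 CPM in the starting libraries and 55585 to 63394 CPM in the removed ones. The 16 endothelial markers summed to 59.0 to 161 CPM and 36.8 to 50.6 CPM, and the 15 macrophage and leukocyte markers to 35.4 to 70.6 CPM and 18.6 to 26.3 CPM. Most of the endothelial sum after removal was Flt1, the 1 endothelial marker called higher, so the sum understates how far the others fell.

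Fibroblasts build the collagen scaffold of the lung, and on stiff culture plastic they can take on the contractile, smooth muscle-like programme of myofibroblasts. Serum factors, actin tension and Hippo signalling reach the nucleus through serum response factor and the YAP and TAZ coactivators, which drive contractile, matrix and immediate early genes. Immediate early genes such as Fos and Egr1 encode transcription factors that are switched on within minutes of a stimulus and off again soon after. Cultures set up from whole tissue also carry other lung cells, such as endothelial cells and macrophages, which are usually lost with time in culture.

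After 20 d without DMSO, 1312 of the 18684 genes tested (7.02%) differed from the starting group, 706 higher (3.78%) and 606 lower (3.24%), by edgeR's quasi-likelihood test at a Benjamini-Hochberg adjusted p under 0.05. Among the gene lists examined, the most members that rose were in the contractile list (11) and the immediate early list (10), followed by the fibrillar collagen, elastic fibre and YAP and TGF-beta response lists (9 each), and endothelial and macrophage markers had the lowest median changes. At least 2-fold changes were found for 360 of the genes that rose and 427 of those that fell. The median log2 fold change over all genes was -0.02, and 3342 of the 18684 genes had an unadjusted p under 0.05. Of the 1312 genes, 1302 showed no overlap between the 3 removed and the 3 starting libraries, against 28.5% of all genes tested. The count fell to between 754 (without S9_716) and 1229 (without S3_716) when 1 library was left out, and came below the main count by more than 1.5 times without S2_715 (786), S7_705 (865), S8_715 (777) and S9_716 (754). Scaling by library size alone moved the log2 fold changes by -0.12 and the split to 433 higher and 843 lower.

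Immediate early genes rose together. Of 21 such genes, all tested, 10 passed the test and all 10 were higher, with a median log2 fold change of 0.96 over the 21, and their summed level went from 807 to 1306 CPM in the starting libraries to 3109 to 4679 CPM in the removed ones. Fos, a component of the AP-1 transcription factor (ENSMUSG00000021250.13, chromosome 12, 85473890 to 85477273, plus strand, GRCm38), stood at 65.3, 13.2 and 33.8 CPM in S1_705, S2_715 and S3_716 and at 488, 756 and 462 CPM in S7_705, S8_715 and S9_716. Every removed library was thus far above every starting library, a log2 fold change of 3.93 ± 0.50 (SE, n = 3 per group, edgeR adjusted p = 4.13e-05). Fosb, its close relative (ENSMUSG00000003545.3, chromosome 7, 19302696 to 19310051, minus strand), rose from 4.55, 2.62 and 3.07 CPM to 87.6, 179 and 70.3 CPM, with the highest level of both genes in S8_715 (5.04 ± 0.76, edgeR adjusted p = 0.000207).

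Egr1, a zinc finger transcription factor, was at 171, 27.6 and 58.2 CPM before and 603, 851 and 546 CPM after removal. The starting libraries were themselves spread over a wide range, and S1_705 was the highest for Fos and Egr1. The log2 fold change of Egr1 was 2.96 ± 0.49 (edgeR adjusted p = 0.000557). Without S1_705 it came to 3.94 for Egr1 and 4.58 for Fos, and in a fit of the 6 libraries alone Egr1 missed the threshold (adjusted p = 0.0524). Ier2, a nuclear protein of the same early response, was tighter, with 52.4, 37.9 and 34.1 CPM before and 298, 363 and 308 CPM after (2.96 ± 0.25, edgeR adjusted p = 6.05e-07). Dusp1, a phosphatase that switches off MAP kinases, went from 77.5, 39.99 and 55.0 CPM to 342, 485 and 278 CPM (2.68 ± 0.36, edgeR adjusted p = 6.5e-05). The AP-1 partners Junb (2.02 ± 0.34) and Jun (1.38 ± 0.27), which were chosen after their values were seen, passed as well. Btg2, an antiproliferative gene of the p53 list that is also known as an early response gene, rose from 113, 46.3 and 67.2 CPM to 345, 497 and 269 CPM (2.29 ± 0.36, edgeR adjusted p = 0.000283). Arc, an early response gene best known from neurons and outside the list of 21, came from 0.549, 0.215 and 0.24 CPM to 6.71, 4.96 and 4.27 CPM (3.98 ± 0.87, edgeR adjusted p = 0.00536), and limma on log2(TPM + 1), TPM being the authors' length-scaled levels, did not call it without a filter (adjusted p = 0.0674). From 9 to 11 immediate early genes were higher whichever of the 6 libraries was left out.

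**Figure D1:**
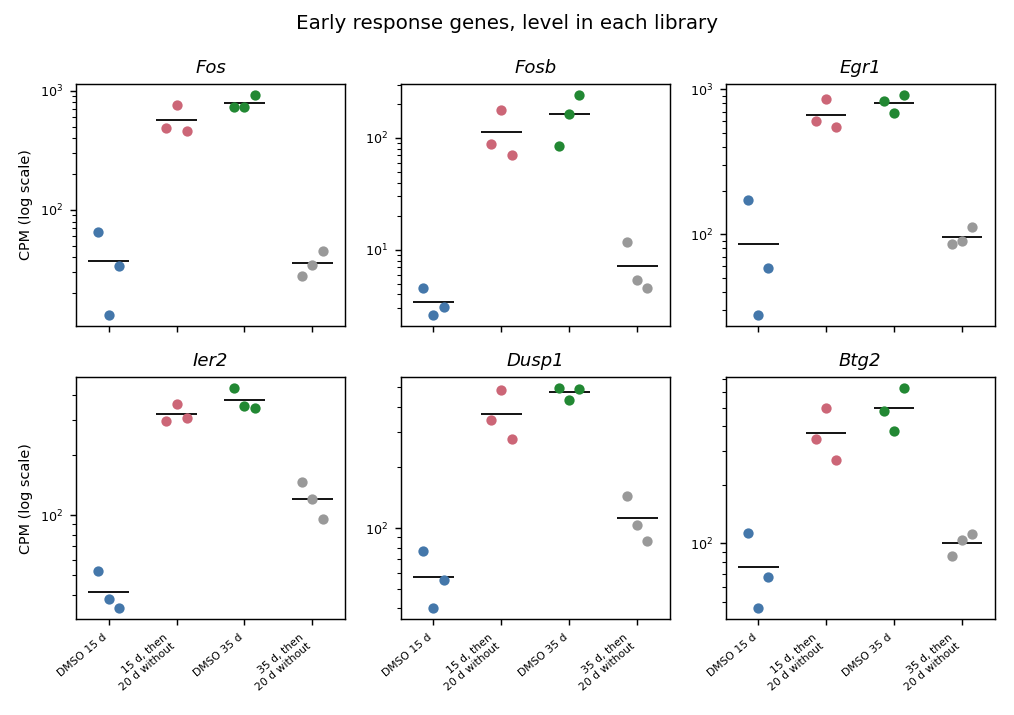
Level of 6 early response genes in CPM (vertical axis, log scale) in each library of 4 groups (horizontal axis), with 1 point per library and a bar at the group mean. For all 6 genes the 3 libraries of DMSO 15 d then 20 d without lie above the 3 DMSO 15 d libraries, and for Fos they lie at 462 to 756 CPM against 13.2 to 65.3 CPM. Fos, Fosb, Egr1 and Ier2 were named by a rule that asked for libraries without overlap, which 28.5% of all genes tested showed.

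Promoters of these genes were read to show what the group shares in sequence. RefSeq promoter windows (GRCm38.p6, 250 bases before to 50 after the start) were found for 16 of the 21 immediate early genes. The pentamer TGACG or its reverse complement CGTCA, the core of the cyclic AMP response element to which CREB and ATF proteins bind, was in the window of 12 of the 16 (75.0%), against 23.05% of 27025 genes and 20.8% of 32851 windows. It was 1 of 6 motifs searched, on both strands, and overlaps the longer palindromic element, which was searched as well. A match describes the letters of the window and is neither a bound site nor a cause of the rise. The 200 bases before the start are printed for Fos, Fosb and Dusp1, which hold matches and whose values are given above, and for Btg2 of the p53 list, with every match in capitals. The Fos sequence is chr12:85473690-85473889 on the plus strand, with matches that begin 129 and 66 bases before the start. Fosb is chr7:19310046-19310245 on the minus strand, with 1 match 60 bases before the start, Dusp1 is chr17:26508473-26508672 on the minus strand, with matches at 191, 143 and 140, and Btg2 is chr1:134079156-134079355 on the minus strand, with matches at 166 and 163.
Fos: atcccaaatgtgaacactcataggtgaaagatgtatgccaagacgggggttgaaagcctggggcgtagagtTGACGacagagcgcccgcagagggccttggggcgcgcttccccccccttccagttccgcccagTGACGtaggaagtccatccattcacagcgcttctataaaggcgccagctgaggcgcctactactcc
Fosb: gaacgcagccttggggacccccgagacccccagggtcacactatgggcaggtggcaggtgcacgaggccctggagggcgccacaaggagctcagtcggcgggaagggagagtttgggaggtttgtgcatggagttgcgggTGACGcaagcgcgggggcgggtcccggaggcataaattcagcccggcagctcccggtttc
Dusp1: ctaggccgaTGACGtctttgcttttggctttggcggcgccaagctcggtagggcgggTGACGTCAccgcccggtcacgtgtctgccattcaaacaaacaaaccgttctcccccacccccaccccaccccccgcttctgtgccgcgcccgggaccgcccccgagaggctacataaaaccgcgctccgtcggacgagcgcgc
Btg2: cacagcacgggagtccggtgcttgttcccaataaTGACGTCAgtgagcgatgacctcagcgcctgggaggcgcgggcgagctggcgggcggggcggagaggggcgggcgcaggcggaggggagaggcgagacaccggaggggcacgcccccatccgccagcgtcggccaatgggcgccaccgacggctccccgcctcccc

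Contractile genes rose as a group. Of 18 genes of the smooth muscle-like programme, 17 could be tested and 11 passed, all of them higher, with a median log2 fold change of 1.07. Their summed level was 6484 to 8785 CPM in the starting group and 13506 to 15930 CPM after removal. Lmod1 encodes leiomodin, which nucleates actin filaments in smooth muscle (ENSMUSG00000048096.7, chromosome 1, 135324807 to 135368065, plus strand). It was at 56.7, 38.5 and 63.3 CPM in the starting libraries and at 173, 169 and 145 CPM in the removed ones, with no overlap (1.62 ± 0.24, edgeR adjusted p = 0.000173). Myh11, the smooth muscle myosin heavy chain, went from 113, 103 and 211 CPM to 504, 579 and 482 CPM, and S3_716 stood above the other starting libraries (1.87 ± 0.30, edgeR adjusted p = 0.000334).

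Ldb3, a PDZ-LIM protein of the actin-anchoring disc, rose by 1.42 ± 0.23, and Cnn2, the calponin of non-muscle cells, from 544, 472 and 570 CPM to 874, 877 and 838 CPM (0.71 ± 0.12, edgeR adjusted p = 0.0008). The rise of Cnn2 was small but tight, and limma on log2(TPM + 1) gave it an adjusted p of 0.0638. Acta2, the smooth muscle actin by which myofibroblasts are usually recognised, was at 1520, 1808 and 2262 CPM before and 3790, 4352 and 3509 CPM after removal. Its libraries did not overlap, but its call (1.06 ± 0.25, edgeR adjusted p = 0.0114) was lost without S1_705 (0.92, adjusted p = 0.0661) and without S8_715 (0.96, adjusted p = 0.0597). The myosin light chain Myl9, chosen after its values were seen, followed it (1.07 ± 0.25) and was likewise not called without S1_705 (adjusted p = 0.0573) or S8_715 (0.0505). The count of contractile genes called was 7 without S1_705 or without S8_715, and from 9 to 12 without 1 of the others.

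A CArG box, the binding sequence of serum response factor, was found in the RefSeq promoter window of 5 of the 14 contractile genes matched (35.7%), Acta1, Actc1, Cnn2, Myl9 and Ldb3, against 1.81% of all genes. Of the 16 immediate early genes matched, Srf and Egr2 had one. The windows hold only sequence near the start, and boxes farther out were not searched. Only CC and GG with nothing but A or T between them, at the length of the boxes printed below, counted as a box. Near matches were not counted, and the Acta2 window, without a box by this rule, holds the near match CCCTATATGG. The sequences of Cnn2 (chr10:79988400-79988599, plus strand, box 56 bases before the start) and Ldb3 (chr14:34588682-34588881, minus strand, box 35 bases before, 1 of 2 RefSeq windows of the gene) are printed as the 2 called genes with a box nearest to their start, with the box in capitals.
Cnn2: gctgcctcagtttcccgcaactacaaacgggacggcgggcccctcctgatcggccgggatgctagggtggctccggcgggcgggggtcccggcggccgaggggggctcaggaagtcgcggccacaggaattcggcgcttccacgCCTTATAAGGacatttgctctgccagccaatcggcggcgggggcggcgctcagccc
Ldb3: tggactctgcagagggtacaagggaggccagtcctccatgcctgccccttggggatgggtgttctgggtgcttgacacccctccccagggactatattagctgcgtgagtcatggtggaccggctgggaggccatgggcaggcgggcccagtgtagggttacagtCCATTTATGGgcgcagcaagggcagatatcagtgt

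Matrix genes formed the other large group of rises. Of 18 fibrillar and associated collagen genes tested, 9 were higher and 2 lower, with a median of 0.89. Col1a1, a chain of type I collagen (ENSMUSG00000001506.10, chromosome 11, 94936224 to 94953042, plus strand), was at 5757, 4860 and 7123 CPM in the starting libraries and at 14097, 12346 and 12481 CPM after removal (1.13 ± 0.25, edgeR adjusted p = 0.00515). Its partner chain Col1a2 went from 7889, 5855 and 7692 CPM to 14668, 13069 and 13437 CPM (0.94 ± 0.16, edgeR adjusted p = 0.000677). Both type I chains were thus higher in every removed library than in any starting library. Col3a1, the type III chain made by the same cells, did not pass, with 21841, 13133 and 14040 CPM before and 15696, 14153 and 12691 CPM after (-0.20 ± 0.34, edgeR adjusted p = 0.854). Col6a3, a chain of the microfibril collagen type VI, was higher by 1.92 ± 0.37. Col23a1 and Col15a1, a membrane collagen and a collagen of basement membrane zones, were the 2 that fell, by 2.39 and 2.52 on the log2 scale. Col8a2 had the highest fold of the list (4.05 ± 1.01), but S9_716 carried it with 29.5 CPM against 3.62 and 5.39 CPM, and without S9_716 it was 2.53 (adjusted p = 0.17). It also missed the threshold without S2_715 (adjusted p = 0.0765) or S3_716 (0.0612). The collagen count was 4 higher without S2_715 and at least 7 without any other library.

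Of 20 basement membrane genes tested, 5 passed and all 5 were higher, with a median of 0.90. Among them were Lama5, Col4a6, Col4a1 and Col4a2, laminin and type IV collagen chains of that sheet. Col4a1 was at 1224, 637 and 1317 CPM before and 2686, 2368 and 2375 CPM after removal (1.22 ± 0.20, edgeR adjusted p = 0.000568), and S2_715 was the low starting library. Col4a2, which shares its promoter region with Col4a1, rose by 1.21 ± 0.19 and the laminin chain Lama5 by 1.49 ± 0.22. Without S2_715, 3 of the 5 were called. Col4a6 was among those lost (1.26, adjusted p = 0.0915), and Col4a6, chosen after its values were seen, was lost also without S3_716 (adjusted p = 0.0651) or S7_705 (0.101). Of 27 elastic fibre and collagen-processing genes, 9 were higher and 1, the fibulin Fbln1, lower, with a median of 0.47. The collagen crosslinking enzyme Lox went from 1592, 918 and 1918 CPM to 3207, 2991 and 3408 CPM (1.12 ± 0.24, edgeR adjusted p = 0.00409). That count was not steady, with 2 genes higher without S2_715 or without S9_716, 5 without S8_715, in the fit of the 6 libraries alone or with library size scaling, 2 by limma on log2(TPM + 1), 0 by the same without a filter, with 12 genes at an unadjusted p under 0.05, and 13 by DESeq2. The fall of Fbln1 (-1.25 ± 0.30) was not called without S1_705, S2_715 or S9_716 (adjusted p = 0.0517, 0.0524 and 0.0659). In the fit of the 6 libraries alone Lox and Col4a1 narrowly missed the threshold (adjusted p = 0.0624 and 0.0524).

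Genes that respond to YAP, TAZ and TGF-beta showed 9 of 24 higher and 1 lower, with a median of 0.52. Ccn2, the connective tissue growth factor, was at 344, 202 and 512 CPM before and 1263, 1379 and 1207 CPM after removal, a rise of 1.86 ± 0.27 (edgeR adjusted p = 0.000172). Ccn1, a secreted matrix protein of the same family, was at 975, 334 and 547 CPM and then 1721, 2059 and 1551 CPM (1.52 ± 0.30, edgeR adjusted p = 0.00218), and Amotl2, a YAP-binding protein, rose by 1.00 ± 0.17. Ptgs2, the inducible cyclooxygenase, rose from 22.6, 7.06 and 35.0 CPM to 134, 225 and 151 CPM (2.97 ± 0.49, edgeR adjusted p = 0.000553). The receptor Tgfbr1 was the member that fell (-0.83 ± 0.22), a call chosen after its values were seen and lost without any of S1_705, S3_716, S7_705, S8_715 or S9_716 (-0.71 to -0.89, adjusted p from 0.0556 to 0.112). The count of higher members was 6 without S1_705, S2_715 or S8_715, and in the fit of the 6 libraries alone Ccn1 was not called (adjusted p = 0.0678).

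**Figure D2:**
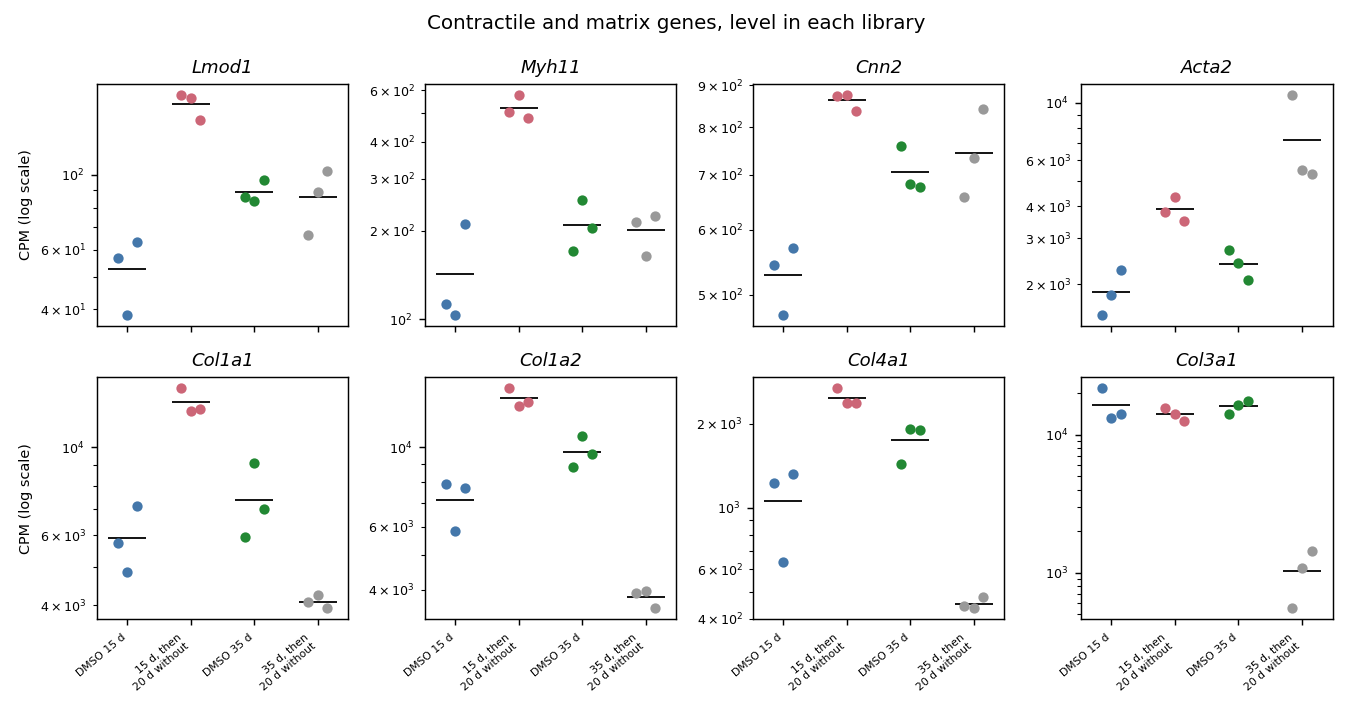
Level of 4 contractile genes (upper row) and 4 collagen genes (lower row) in CPM (vertical axis, log scale) in each library of 4 groups (horizontal axis), with 1 point per library and a bar at the group mean. The removed libraries lie above the DMSO 15 d libraries for every gene shown except Col3a1, whose levels overlap.

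Several genes outside these groups rose as well. Meg3, a long noncoding RNA of the imprinted Dlk1-Dio3 locus (ENSMUSG00000021268.17, chromosome 12, 109541001 to 109571726, plus strand), went from 133, 120 and 145 CPM to 527, 576 and 704 CPM (2.18 ± 0.21, edgeR adjusted p = 2.67e-06). Cdh3, which encodes P-cadherin, was at 1.53, 1.25 and 2.05 CPM before and 14.1, 12.2 and 11.7 CPM after (2.96 ± 0.31, edgeR adjusted p = 3.76e-06). Ramp1, a coreceptor for calcitonin gene-related peptide, was below 1 CPM in all starting libraries (0.549, 0.788 and 0.675) and at 4.98, 6.41 and 6.85 CPM after removal (3.18 ± 0.44, edgeR adjusted p = 8.87e-05). All 3 genes were evenly low before and evenly high after. Igfbp2, a binding protein of insulin-like growth factors, rose from 27.4, 49.6 and 31.9 CPM to 187, 244 and 465 CPM (3.04 ± 0.56), and Itga8, the integrin chain of alveolar and contractile fibroblasts, from 75.9, 50.0 and 138 CPM to 392, 461 and 497 CPM (2.35 ± 0.36). Prl3a1, a prolactin family gene, stayed under 10 CPM in all 6 libraries (3.54 ± 0.70). C1qtnf3, a secreted C1q-like protein, was uneven, with 0.0916, 0.215 and 1.07 CPM before and 3.97, 10.3 and 22.7 CPM after (4.62 ± 0.89, edgeR adjusted p = 0.00198), and its log2 fold change was 6.32 without S3_716 and 3.84 without S9_716.

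Markers of endothelial cells, which line vessels, had the lowest median of the lists. Of 16 such genes, 13 were lower and 1 higher, with a median log2 fold change of -3.30. Pecam1, the junction protein CD31 (ENSMUSG00000020717.19, chromosome 11, 106654217 to 106750628, minus strand), was at 19.9, 6.95 and 6.75 CPM in the starting libraries and at 0.441, 0.107 and 0.147 CPM after removal (-5.62 ± 0.58, edgeR adjusted p = 3.76e-06). Cd93, a receptor of endothelial and myeloid cells (ENSMUSG00000027435.8, chromosome 2, 148436640 to 148443563, minus strand), fell from 9.74, 3.94 and 4.92 CPM to 0.22, 0.188 and 0.147 CPM (-5.05 ± 0.51, edgeR adjusted p = 3.68e-06). Cdh5, the cadherin of endothelial junctions, fell from 25.5, 5.73 and 8.89 CPM to 1.07, 0.67 and 0.54 CPM (-4.14 ± 0.64, edgeR adjusted p = 0.00026). S1_705 held the highest level of all 3 before removal. Without it the log2 fold change was -4.92 for Pecam1 and -3.29 for Cdh5, and without S7_705 that of Pecam1 was -6.41. Tie1, a receptor kinase of vessels, was at -4.51, with -3.54 without S1_705, -5.51 without S7_705 and -3.89 without S9_716.

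Emcn, a sialomucin of capillaries and veins, was at 4.21, 2.9 and 1.79 CPM before removal and was detected after it in S7_705 alone, at 0.22 CPM. Its fitted log2 fold change was -5.40, and -4.77 without S9_716. Without S7_705 both remaining removed libraries were at 0 and the fitted value (-9.57) depends on the prior count. That of the tight junction gene Cldn5 (-4.29) was -5.74 without S7_705. Tek, the angiopoietin receptor, and Egfl7, a secreted factor of endothelium, fell by 3.15 and 2.07 on the log2 scale. The scavenger receptor Stab1 fell by 3.23 but was not called without S1_705 (-1.83, adjusted p = 0.0712), and was at -4.19 without S7_705. The number of endothelial markers lower was 11 to 14 with 1 library left out, 8 in the fit of the 6 libraries alone and 7 by limma on log2(TPM + 1). The exception was Flt1, a VEGF receptor that other cells can make, which rose from 12.5, 7.24 and 15.6 CPM to 36.6, 28.1 and 33.9 CPM (1.48 ± 0.40, edgeR adjusted p = 0.0255), was chosen after its values were seen and was not called without S1_705, S2_715, S7_705 or S9_716 (1.22 to 1.502, adjusted p from 0.0667 to 0.147). In bulk RNA, fewer cells of a type and less RNA per cell cannot be told apart.

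Of 15 macrophage and leukocyte markers, 11 passed the filter on low counts and 7 of these were called, all lower. Of the other 4, Cd68, a lysosomal protein of macrophages, was at 2.23, 2.04 and 2.61 CPM before and 3.59, 3.38 and 3.19 CPM after (0.55 ± 0.18, edgeR adjusted p = 0.0679), and the growth factor receptor Csf1r at 5.13, 3.3 and 4.27 CPM and then 5.1, 4.42 and 4.79 CPM (0.17 ± 0.26). Both were chosen after their values were seen. The median of the 11 markers was -2.92, also with 3 genes that were at 0 set to their bound. C1qb, a chain of the complement starter C1q, had 85, 44 and 15 counts in the starting libraries and 0 in all removed libraries, at least 49.4-fold lower when the group is given 3 counts as its floor. C1qc (83 counts before, at least 28.5-fold lower), the adaptor Tyrobp (58 counts, at least 19.9-fold lower) and the macrophage marker Adgre1 (34 counts, at least 11.7-fold lower), which did not pass the filter, were at 0 as well. Of these, C1qc and Adgre1 were chosen after their values were seen. The scavenger receptor Marco had 141 counts before and 1 after, a ratio of 145 (95% exact interval 25.7 to 5777, counting error only). Ctss, a lysosomal protease of macrophages, had 104 counts before and 1 after, a ratio of 107 (18.8 to 4271). The chemokine Ccl6 fell from 9.13, 5.59 and 4.84 CPM to 0.283, 0.134 and 0.27 CPM (-4.81 ± 0.66, edgeR adjusted p = 8.17e-05).

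Markers of other resident lung cells were mixed. Sftpc, the surfactant protein of alveolar epithelium, was low before removal (0.702, 1.18 and 0.196 CPM) and lower after it (0, 0.0804 and 0.0246 CPM), at -4.08 ± 0.76, with -3.47 without S2_715 and -5.29 without S8_715. It was the only call among the 5 epithelial markers tested. Of 11 pericyte and smooth muscle markers, 3 were lower and 1, Myh11, higher, while 8 had a positive log2 fold change and the median was 0.36. Their summed level was 833 to 1018 CPM before and 1433 to 1625 CPM after removal, and DESeq2 called 3 higher and 3 lower. The potassium channel genes Kcnj8, at 49.2, 74.2 and 42.1 CPM before and 8.09, 14.1 and 9.87 CPM after (-2.36 ± 0.36, edgeR adjusted p = 0.000229), and Abcc9 (-2.17 ± 0.42), which form 1 channel in pericytes, fell together. Of 10 Schwann cell and neural markers tested, 4 were lower and 1 higher, with 2 lower without S2_715 or S9_716. No member was called by edgeR without S3_716, S7_705 or S8_715, where 6, 7 and 7 members had an unadjusted p under 0.05. The glial genes Sox10 and Cdh19 and the neuronal gene Stmn2 were lower and the myelin gene Mbp higher, Cdh19 being chosen after its values were seen. The nerve growth factor receptor Ngfr came from 3.36, 7.17 and 23.2 CPM to 0.189, 0.214 and 0.786 CPM (-4.78 ± 1.19, edgeR adjusted p = 0.0146), with S3_716 the highest starting library, and was not called without S3_716 (-3.69, adjusted p = 0.0696), S7_705 (0.0751) or S8_715 (0.0817), and was at -5.77 without S9_716. None of 7 mesothelial markers was called by edgeR, where 4 had an unadjusted p under 0.05, against 3342 of all 18684 genes. DESeq2 called 3 mesothelial markers and limma on log2(TPM + 1) called 1. What these markers contribute to the other differences was not tested.

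**Figure D3:**
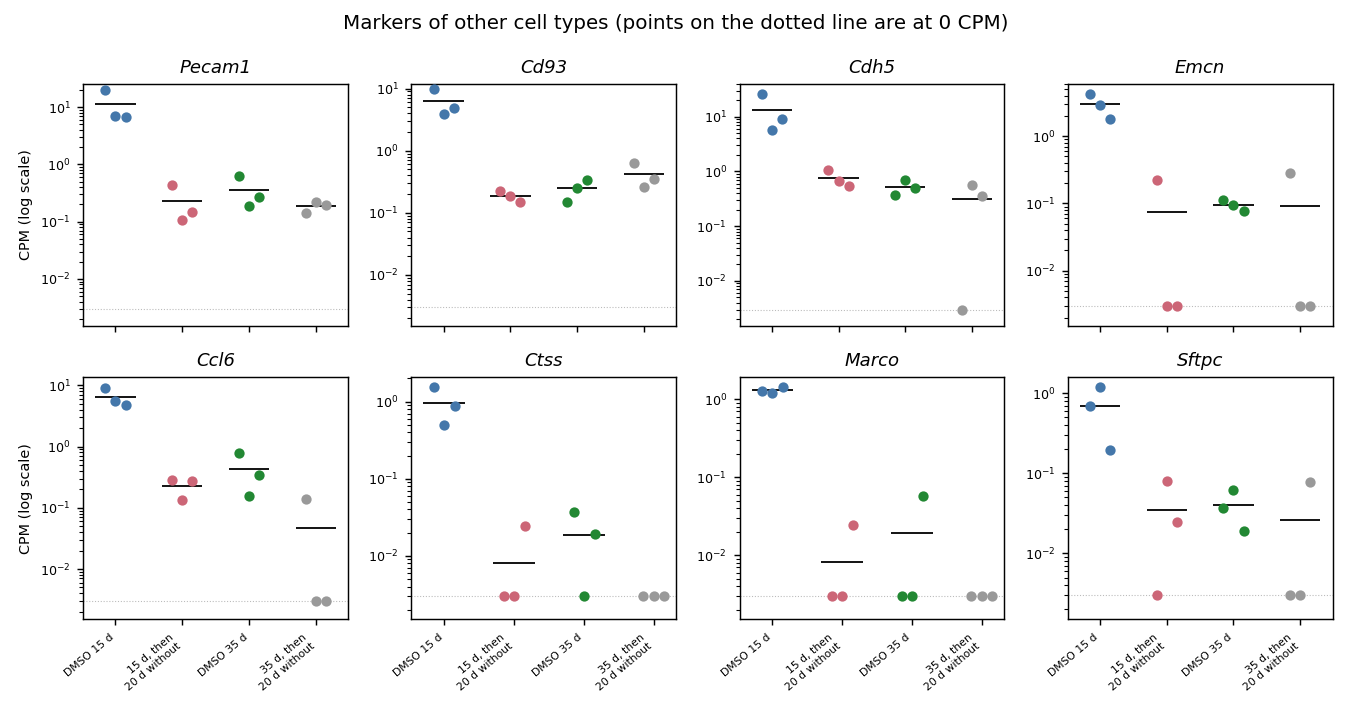
Level of markers of endothelial cells (Pecam1, Cd93, Cdh5, Emcn), macrophages (Ccl6, Ctss, Marco) and alveolar epithelium (Sftpc) in CPM (vertical axis, log scale, points on the dotted line are at 0) in each library of 4 groups (horizontal axis), with a bar at the group mean. The 3 DMSO 15 d libraries lie above all removed libraries for each gene, and the DMSO 35 d libraries are low too, at 0.189 to 0.634 CPM for Pecam1. Pecam1, Cd93, Cdh5 and Ccl6 were named by a rule that asked for libraries without overlap, which 28.5% of all genes tested showed.

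Of 26 WNT pathway genes tested, 5 passed and all 5 were lower, with a median of -0.44. Wnt4, a WNT ligand (ENSMUSG00000036856.4, chromosome 4, 137277489 to 137299726, plus strand), went from 17.7, 47.7 and 16.8 CPM to 1.98, 4.21 and 3.14 CPM (-3.13 ± 0.50, edgeR adjusted p = 0.00039). S2_715 was the highest, and without it the difference was -2.48. Wnt2, the ligand of lung mesenchyme, fell from 4.46, 13.1 and 5.25 CPM to 0.409, 1.82 and 0.958 CPM (-2.82 ± 0.59, -2.19 without S2_715, -3.46 without S8_715), and was not called in the fit of the 6 libraries alone (adjusted p = 0.0606). Axin2, the common target of the pathway, fell from 4.55, 3.44 and 3.25 CPM to 0.661, 1.13 and 0.761 CPM (-2.13 ± 0.37, edgeR adjusted p = 0.000837). The secreted WNT modulator Sfrp2 (ENSMUSG00000027996.13, chromosome 3, 83766321 to 83774316, plus strand) fell from 165, 142 and 117 CPM to 17.7, 30.4 and 11.1 CPM (-2.84 ± 0.35, edgeR adjusted p = 3.08e-05). The related inhibitor Frzb, chosen after its values were seen, fell by 0.90. Ligands, a target and antagonists thus fell side by side, and 5 or more WNT genes were lower whichever library was left out.

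Fibroblast genes of the adventitia, the outer coat of vessels and airways, were lower in 4 of 13, among them Sfrp2, Col15a1 and Clec3b, a plasminogen-binding lectin, from 43.8, 58.6 and 14.9 CPM to 9.29, 6.08 and 8.03 CPM (-2.32 ± 0.53, edgeR adjusted p = 0.00732). Of 15 alveolar and lipofibroblast genes, 2 rose and 2 fell. Itga8 led the rises, and the falls were Cebpa, a transcription factor of fat-storing cells (-1.24 ± 0.21), and the growth factor receptor Fgfr4 (-2.48 ± 0.48, under 2 CPM in all libraries). Complement genes fell in 3 of 13, with a median of -0.83 and a negative log2 fold change in all 13. C2, a protease precursor of the classical pathway, went from 45.2, 43.8 and 17.5 CPM to 11.3, 7.21 and 5.87 CPM (-2.13 ± 0.35, edgeR adjusted p = 0.000486), and Cfi, the inhibitor factor I, fell by 1.64 on the log2 scale.

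Some of the steepest falls belonged to single secreted or surface proteins. Cxcl5, a neutrophil-attracting chemokine (ENSMUSG00000029371.7, chromosome 5, 90759360 to 90761624, plus strand), was at 69.1, 36.7 and 25.6 CPM before and 5.76, 5.39 and 4.22 CPM after removal (-3.09 ± 0.47, edgeR adjusted p = 0.000229). Mme, the surface peptidase neprilysin (ENSMUSG00000027820.12, chromosome 3, 63241537 to 63386030, plus strand), fell from 48.9, 27.7 and 25.03 CPM to 5.1, 4.56 and 3.83 CPM (-2.91 ± 0.28, edgeR adjusted p = 2.41e-06). The removed libraries agreed closely for both genes while S1_705 was the highest of the starting ones. Enpp2, the enzyme autotaxin, went from 9.49, 10.5 and 3.12 CPM to 0.567, 0.429 and 0.147 CPM (-4.35 ± 0.57), the claudin Cldn2 from 14.7, 8.39 and 6.01 CPM to 0.976, 1.21 and 0.418 CPM (-3.48 ± 0.45), and the WNT and FGF antagonist Shisa3 fell by 4.18.

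Metabolic lists had smaller folds. Of 28 cholesterol and fatty acid synthesis genes, 7 passed and all 7 were lower, with a median of -0.38. Nsdhl, a demethylating enzyme late in the pathway, fell from 29.1, 29.5 and 29.7 CPM to 19.6, 18.98 and 17.2 CPM (-0.66 ± 0.12, edgeR adjusted p = 0.0008), and limma on log2(TPM + 1) gave it an adjusted p of 0.0615. That count was 1 without S9_716, 3 without S7_705, 4 without S8_715 and 15 under scaling by library size alone. Of 30 lysosome and autophagy genes, 5 passed and all 5 were lower, with a median of -0.26. They were Ctss, Atp6v0d2, Gla, Ctsb and Lamp2, of which Atp6v0d2, a proton pump subunit of macrophages and osteoclasts, had 25 counts before removal and 0 after, at least 8.58-fold lower. Lamp2, a membrane protein of lysosomes, fell from 688, 580 and 639 CPM to 457, 427 and 429 CPM (-0.54 ± 0.11, edgeR adjusted p = 0.00232), but was not called in the fit of the 6 libraries alone (adjusted p = 0.0533) or by limma on log2(TPM + 1) (0.0854). Gla (-0.71) was not called without S8_715 or S9_716 (adjusted p = 0.0592 and 0.0673), and the protease Ctsb (-0.58), chosen after its values were seen, was called in the fit without S3_716 but not without any other of the 6 libraries (adjusted p from 0.0503 to 0.105).

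Few growth and senescence genes passed the test. Mki67, a marker of cycling cells, was at 19.05, 28.2 and 35.6 CPM before and 19.6, 16.97 and 16.7 CPM after removal and did not pass (-0.64 ± 0.23, edgeR adjusted p = 0.118). None of 25 mitosis genes was called by edgeR, where 11 had an unadjusted p under 0.05, all lower. Over all 18684 genes, 3342 had such a p in either direction. The log2 fold change was negative in 24 of the 25 mitosis genes. DESeq2 called 2 lower, limma on log2(TPM + 1) called 0 with 5 at an unadjusted p under 0.05, edgeR called 5 lower without S1_705, among them Mki67 (-0.86, adjusted p = 0.0333), and the median was -0.39. The replication helicase gene Mcm6 fell by 0.62 ± 0.13 (edgeR adjusted p = 0.00281), 1 of 2 calls among 29 replication genes. Of these 29, 27 had a negative log2 fold change and 7 an unadjusted edgeR p under 0.05, all 7 lower. Cdkn1a, the cell cycle inhibitor p21, rose from 174, 145 and 170 CPM to 278, 312 and 272 CPM (0.82 ± 0.18, edgeR adjusted p = 0.00493) and was the only call among 7 cyclin-dependent kinase inhibitors. Cdkn2a (0.54 ± 0.31), Cdkn2b (0.26 ± 0.16), Lmnb1 (-0.48 ± 0.17), Hmgb2 (-0.70 ± 0.33), Trp53 (0.02 ± 0.25), Mdm2 (0.31 ± 0.13) and Atm (-0.22 ± 0.41) did not pass, although DESeq2 called Lmnb1 (adjusted p = 0.0402).

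Of 29 p53 target genes, 5 rose and 1 fell, with a median of 0.19. Besides Btg2 and Cdkn1a the rises were Gdf15, a stress-induced cytokine (1.95 ± 0.32), the kinase Plk2 (1.81 ± 0.31) and Sesn2, a stress sensor that was not called without S2_715, S7_705 or S8_715 (adjusted p from 0.0591 to 0.0702). Trp53i11, chosen after its values were seen, fell by 0.73 and was not called without S1_705 or S7_705 (adjusted p = 0.0682 and 0.0697). Of 37 genes of the senescence secretory list, 6 rose and 5 fell, with a median of -0.03. Igfbp2 and Csf1, the macrophage growth factor (1.34 ± 0.25), were among the rises. The falls were Cxcl5, the macrophage protease Mmp12 (208 counts before and 2 after, a ratio of 107, interval 29.3 to 890), the protease Mmp9, the chemokine Ccl8 and the growth factor-binding protein Igfbp5, the last 3 chosen after their values were seen. Mmp9 (-4.13) was not called without S1_705 (-2.19, adjusted p = 0.162) or S9_716 (-3.69, adjusted p = 0.0579) and was at -5.42 without S8_715, Ccl8 (-1.74) was not called without any of the libraries but S3_716 (adjusted p from 0.0501 to 0.258), and Igfbp5 (-1.02) was not called without any of the 6 (adjusted p from 0.0527 to 0.117). In contrast, Il6, the list's best known cytokine, did not pass (-0.07 ± 0.62, edgeR adjusted p = 0.979). ATF4 and endoplasmic reticulum stress genes had 2 calls among 22, both higher, Sesn2 and Chac1, a glutathione-degrading enzyme (1.88 ± 0.39, edgeR adjusted p = 0.00368). The imprinted growth genes had Meg3 higher and the zinc finger gene Plagl1 lower (-2.00 ± 0.30) among 13.

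The comparison with cells that stayed in DMSO holds time in culture fixed. The removed group and the DMSO 35 d group, both 35 d in culture, differed in 30 of 18684 genes (0.161%), 27 higher (0.145%) and 3 lower (0.0161%) after removal, while 1198 genes had an unadjusted p under 0.05 and the median log2 difference was -0.00. In all 30 genes the 3 removed libraries lay on 1 side of the 3 DMSO 35 d libraries. Called genes mostly separate in this way, as 1302 of 1312 did in the first comparison. The share of all genes that do so was not counted for this one. The number depended on single libraries, with 24 called without S7_705, 11 without S13_705, 9 without S8_715, 7 without S9_716, 5 without S15_716 and, by edgeR, 0 without S14_715, where 1107 genes had an unadjusted p under 0.05. It was 164 by DESeq2 and 252 in a fit of the 6 libraries alone.

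Cdh3 was at 14.1, 12.2 and 11.7 CPM after removal and 4.32, 3.71 and 3.28 CPM with continued DMSO (1.75 ± 0.29, edgeR adjusted p = 0.0113), and Rab3b, a GTPase of secretory vesicles (ENSMUSG00000003411.10, chromosome 4, 108879063 to 108943324, plus strand), at 5.86, 5.36 and 5.48 CPM against 2.31, 1.67 and 2.17 CPM (1.44 ± 0.20, edgeR adjusted p = 0.00371). Ramp1 was at 4.98, 6.41 and 6.85 CPM against 1.3, 1.41 and 1.2 CPM (2.22 ± 0.41, edgeR adjusted p = 0.023), and Meg3 at 527, 576 and 704 CPM against 281, 345 and 240 CPM (1.06 ± 0.21, edgeR adjusted p = 0.0312). The removed libraries were the higher ones for all 4 genes. The synuclein gene Sncg (1.99 ± 0.38), the muscle F-box gene Fbxl22 (1.59 ± 0.28) and Cd109, a TGF-beta coreceptor (1.59 ± 0.28), were higher as well. The 3 genes lower after removal were Cxcl5, with 5.76, 5.39 and 4.22 CPM against 24.8, 26.2 and 33.0 CPM (-2.45 ± 0.46, edgeR adjusted p = 0.0233), Mme, with 5.1, 4.56 and 3.83 CPM against 8.68, 14.01 and 16.2 CPM (-1.53 ± 0.27, edgeR adjusted p = 0.014), and the interleukin receptor Il17ra (-0.75 ± 0.15, edgeR adjusted p = 0.0466). Each of these 10 calls was lost without at least 1 library: that of Rab3b without S14_715 (1.30, adjusted p = 0.0536), that of Cdh3 without S14_715 (1.73, 0.0691) or S15_716 (1.65, 0.134), and those of the other 8 without 4 to 6 of the 6 libraries, with adjusted p up to 0.387 and every difference keeping its sign.

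**Figure D4:**
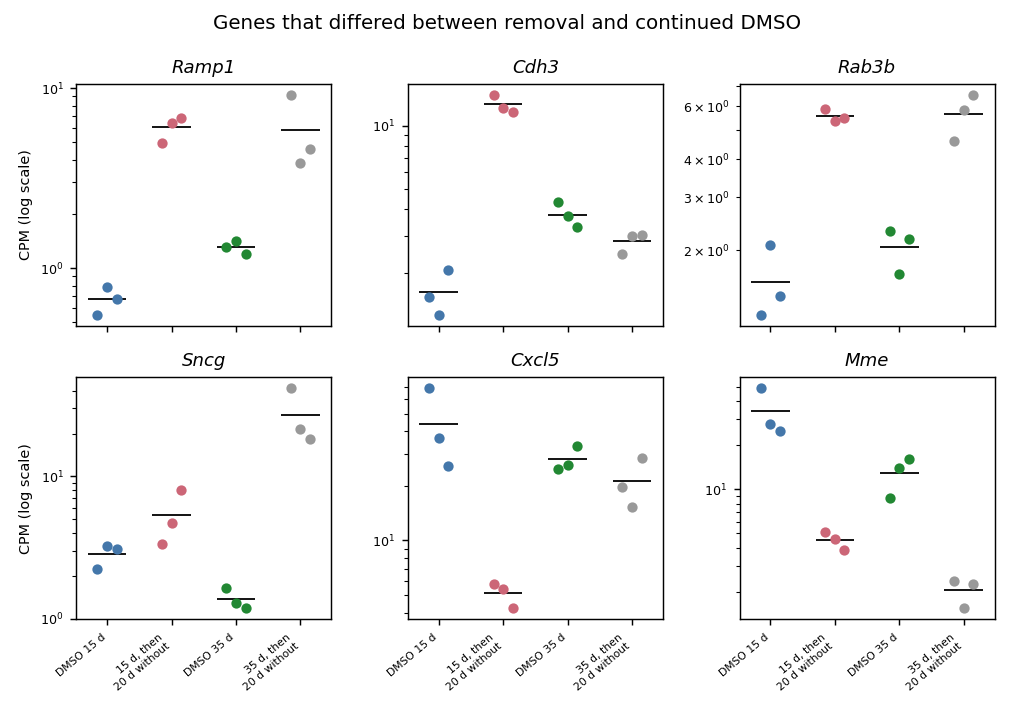
Level of 4 genes higher (Ramp1, Cdh3, Rab3b, Sncg) and 2 lower (Cxcl5, Mme) after removal than in DMSO 35 d, in CPM (vertical axis, log scale) in each library of 4 groups (horizontal axis), with a bar at the group mean. The 6 genes were chosen among those whose removed and DMSO 35 d libraries did not overlap, and Cxcl5 lies at 4.22 to 5.76 against 24.8 to 33.0 CPM.

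For the gene groups above, the 2 comparisons are given side by side, since both use the removed libraries. Immediate early genes had a median of 0.96 against DMSO 15 d and -0.34 against DMSO 35 d, and their summed level was 4153 to 5344 CPM in the DMSO 35 d libraries. Fos stood there at 725, 727 and 926 CPM and Egr1 at 831, 683 and 919 CPM, and neither passed the test against the removed group (-0.48 ± 0.44 and -0.28 ± 0.46). Endothelial markers had medians of -3.30 and 0.60, macrophage markers of -2.92 and -0.03, and Pecam1 was at 0.634, 0.189 and 0.267 CPM in the DMSO 35 d libraries. Both groups of 35 d in culture thus had low Pecam1 and high Fos and Egr1. WNT genes had medians of -0.44 and -0.11, with Sfrp2 at 34.0, 64.9 and 48.8 CPM in DMSO 35 d (-1.32 ± 0.34, edgeR adjusted p = 0.138).

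Contractile genes kept a positive median in both, 1.07 and 0.69. Against DMSO 35 d, 13 of the 17 had an unadjusted p under 0.05, all higher, where 1198 of all 18684 genes had one. The edgeR adjusted p of Myh11 was 0.0789. Myh11 was at 171, 255 and 203 CPM with continued DMSO, between the starting level and the 482 to 579 CPM of the removed libraries (1.32 ± 0.29), and Lmod1 at 86.2, 83.8 and 96.6 CPM (0.87 ± 0.23, edgeR adjusted p = 0.169). Fibrillar collagens had medians of 0.89 and 0.31 and basement membrane genes of 0.90 and 0.48. Col1a1 was at 5952, 9107 and 6986 CPM in DMSO 35 d against 12346 to 14097 CPM after removal, without overlap, but did not pass over all genes (0.82 ± 0.24, edgeR adjusted p = 0.246).

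**Figure D5:**
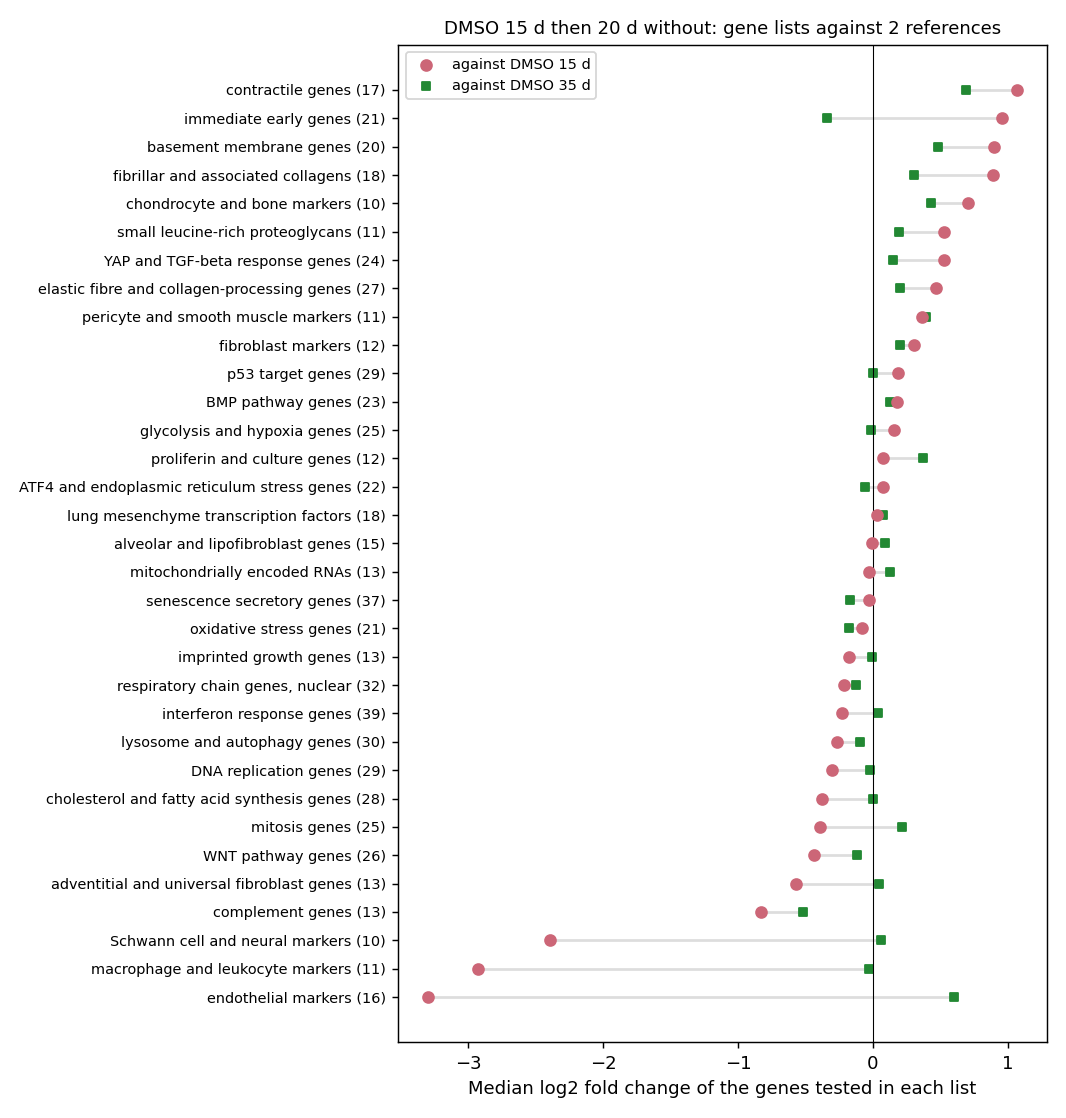
Median log2 fold change (horizontal axis) of the genes tested in each list with at least 10 of them, number in brackets (vertical axis), for the removed group against DMSO 15 d (circles) and against DMSO 35 d (squares), which share the removed libraries. Immediate early genes lie at 0.96 and -0.34, contractile genes at 1.07 and 0.69 and endothelial markers at -3.30 and 0.60.

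The change after removal was also set against that of cells kept in DMSO for 35 d before the 20 d without it, as the difference of the 2 log2 changes. The 2 removals also lay at different culture ages, so time with DMSO and culture age cannot be told apart here. The libraries of that later removal stood apart: their 25 mitosis genes summed to 2029 to 3028 CPM against 192 to 274 CPM in DMSO 35 d and 246 to 276 CPM in the group removed after 15 d, and S19_705 had 3.06% of its counts in rRNA genes. The difference passed the test for 9749 genes (52.2%), 5000 with the higher change after the earlier removal, and for 9374 without S19_705. Fos, which rose after the earlier removal, was at 28.0, 34.6 and 45.4 CPM after the later one (difference 8.38, edgeR adjusted p = 1.19e-08, and 9.03 without S1_705), and Fosb differed by 9.57. Mki67 was at 480, 357 and 338 CPM after the later removal against 16.7 to 19.6 CPM after the earlier (difference -5.35, edgeR adjusted p = 2.48e-10). Col3a1 was at 549, 1074 and 1433 CPM after the later removal and 12691 to 15696 CPM after the earlier one (difference 3.78, edgeR adjusted p = 3.51e-06). The BMP family gene Bmp3 (7.21) was positive too, with 0.504 to 0.706 CPM after the later removal. The basophil protease gene Mcpt8 (-7.77), the steroid-reducing enzyme gene Akr1c18 (-7.58), the endothelial proteoglycan gene Esm1 (-6.92) and the proliferin gene Prl2c2 (-8.78), whose near-identical copies may share reads, were negative. Fos, Fosb, Bmp3, Mcpt8, Akr1c18, Esm1 and Prl2c2 kept their call whichever of the 12 libraries was left out. Acta2, at 10757, 5523 and 5298 CPM after the later removal, showed no difference between the removals past the threshold (-0.53, edgeR adjusted p = 0.223).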

How the data were processed

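RNA-seq of 27 libraries in 9 groups of 3 was used, and the 6 libraries of DMSO 15 d and DMSO 15 d then 20 d without were compared. Per the submitters' processing notes, the authors counted reads per gene by featureCounts with the mm10 build, and they deposited raw counts and a separate table of TPM for the same libraries. For the aligner, annotation release and strand setting, the labels give nothing, and reads of overlapping or antisense genes cannot be told apart. The test of these counts used edgeR 4.0.16 (R 4.3.3) with filterByExpr with a minimum count of 10 (18684 of 48440 genes kept), TMM scaling, 1 model of the 27 libraries with group means, the quasi-likelihood test and Benjamini-Hochberg adjustment over all genes tested. The procedure was checked on simulated data. With 3 libraries a group, depth was 26604303 to 41114615 counts in the 6 compared libraries. Gene positions are those of GENCODE M21 (GRCm38), by gene ID. Promoter windows are RefSeq's (GRCm38.p6).

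The members, gene lists and tests were chosen with earlier results of these data known. Genes named are a panel, the 12 largest rises and 12 largest falls among called genes whose higher group averaged 5 CPM or more and whose libraries did not overlap, up to 4 genes with the lowest p of each list, and for the other comparisons the 6 most positive and 6 most negative. Genes outside this rule are said to be chosen after their values were seen. Alternatives were RLE and library size scaling, no filter, DESeq2 1.42.0, limma 3.58.1 on log2(TPM + 1) or log2(TPM + 0.1), a replicate block, a fit of the compared groups alone and each library left out. Removal of the gene length trend, the same with the block, and protein-coding genes alone were added after seeing the data. A few genes that this rule selects are not reported here.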

Additional observations from a re-analysis of the deposited data

Results flagged for a closer look

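The log2 change after removal of DMSO at 15 d and that after removal at 35 d were tested against each other in the same edgeR model, and the difference passed at an adjusted p under 0.05 for 9749 of 18684 genes. The genes named in the report that passed are given with the earlier change minus the later one, and a positive value means a higher change after the earlier removal. Each removal has its own 3 and 3 libraries, and the later removed libraries stood apart in mitosis genes (2029 to 3028 CPM) and, for S19_705, in rRNA (3.06%), whose part in these values was not tested. The later removal also lay at a later culture age, which cannot be told apart from the longer time with DMSO.

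Early response genes had positive differences: Fos (8.38), Fosb (9.57), Egr1 (6.05), Ier2 (4.60), Dusp1 (4.76), Btg2 (4.59), Junb (4.15), Jun (2.26) and Arc (5.87). So did the collagens, laminin chain and crosslinking enzyme Col1a1 (1.98), Col1a2 (2.30), Col3a1 (3.78), Col4a1 (3.18), Col4a2 (2.97), Col4a6 (2.44), Col8a2 (4.63), Lama5 (2.18) and Lox (2.14), whereas Col15a1 (-2.56) was negative. Contractile genes named in the report with a difference past the threshold were Lmod1 (1.67), Myh11 (1.93), Ldb3 (0.99) and Cnn2 (0.63). The contractile list as a whole was split. Of its 17 genes tested, 6 had a positive and 3 a negative difference past the threshold, and the median was -0.06. Growth factor and tension response genes that passed were Ccn1 (3.38), Ccn2 (1.86), Amotl2 (2.51) and Ptgs2 (2.30).

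Of the markers of other cell types named in the report, those with a negative difference were endothelial Pecam1 (-4.75), Cd93 (-5.66), Cdh5 (-3.52), Cldn5 (-3.72), Egfl7 (-3.25), Tek (-3.40), Stab1 (-2.59), Emcn (-4.99) and Esm1 (-6.92), macrophage Mmp12 (-8.04) and Atp6v0d2 (-8.24) and neural Stmn2 (-8.51), and the myelin gene Mbp (0.95) was positive. Some of these groups were at or near 0 counts, where a fitted value depends on the prior count. A negative difference also does not say which removal moved a gene. The 16 endothelial markers had a median of -3.30 after the earlier removal and -0.60 after the later one (2 called higher, 2 lower). Where the later removal began, their median was already -4.47 against the starting group of the earlier one. Stmn2 and Esm1 changed less after the earlier removal, by -2.68 and, across settings, -0.79 to -0.24, and rose after the later one. Cell cycle and senescence genes were Mki67 (-5.35), Lmnb1 (-2.69), Hmgb2 (-2.89), Mcm6 (-3.52) and Cdkn2b (-0.75), and stress genes Gdf15 (2.43), Plk2 (1.68) and Chac1 (1.47). Secreted and signalling genes were Il6 (5.09), Csf1 (0.99), Cxcl5 (-2.69), Ccl8 (-4.74), Il17ra (1.21), Cfi (1.51), Frzb (1.4992), Sfrp2 (2.49) and Wnt4 (-1.75). The remaining positive differences were Bmp3 (7.21), Itga8 (4.58), Cdh3 (3.37), Meg3 (3.03), Prl3a1 (2.5028) and Cebpa (1.54). The remaining negative ones were Prl2c2 (-8.78), Mcpt8 (-7.77), Akr1c18 (-7.58), Sncg (-3.39), Plagl1 (-1.5003), Gla (-1.58), Cd109 (-1.13) and Nsdhl (-0.98).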

How the results depend on the processing

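The genes that differed after removal numbered 1312, and 800 in a fit of the compared groups alone, 784 by limma on log2(TPM + 1) and 633 on log2(TPM + 0.1). With 1 library left out the number was 754 to 1229, and RLE scaling, library size, no filter and DESeq2 gave 1297, 1276, 1047 and 1720. The 30 genes that differed from DMSO 35 d were 164 by DESeq2, 252 in a fit of the compared groups alone, 10 by limma on log2(TPM + 0.1) and 0 to 24 with 1 library left out. The difference between the 2 removals ran from 8429 to 10396 genes with 1 library left out. With the replicate number as a replicate block the counts were 1420, 51 and 9706, and the block with the gene length trend removed gave 71 for the second. Deviations of same-numbered libraries correlated at 0.24, -0.05 and 0.15 in the first comparison, and those of differently numbered ones at -0.29 to 0.10. Between the removed group and DMSO 35 d, same-numbered libraries correlated at 0.07, 0.24 and 0.21 and differently numbered ones at -0.20 to 0.003. The labels do not say what the numbers mark, and the main fit did not take them as pairs in any comparison. No named gene called after removal against DMSO 15 d changed sign under these settings, while uncalled ones near 0 did, such as Trp53 (0.02, and -0.10 with library size scaling). The cause of the changes in count was not tested. Depth limits genes with few counts, such as the markers of other cell types after removal, where a count of 0 allows up to 3 counts over the group.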
